A study of Rattus norvegicus with 12 samples.

Results

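This account concerns 4 genes used as readouts of DNA damage and oxidative stress, Cdkn1a (ENSRNOG00000000521), Gdf15 (ENSRNOG00000019661), Hmox1 (ENSRNOG00000014117) and Nqo1 (ENSRNOG00000012772), out of 32623 gene identifiers in the deposited count table. They were chosen by identifier for what they are known to do, with earlier results of these data known. All 4 were found in the table, 3 had enough reads to be tested, and Gdf15 did not. RNA came from the homogenised right lung of 12 male Sprague-Dawley rats, 4 in each of 3 groups, and was sequenced from the 3′ end of transcripts, which gives about 1 read per molecule whatever the length of the transcript.

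Rats of the SAL group received saline into the trachea on day 0 and day 4 and then oral methylcellulose, the vehicle of the drug. BLM rats received bleomycin at 1 U/kg on both days and the same vehicle. In the NINT group the same bleomycin dosing was followed by oral nintedanib at 100 mg/kg, a tyrosine kinase inhibitor that acts on the receptors for platelet-derived, fibroblast and vascular endothelial growth factors. Oral dosing began on day 7, was repeated daily for 3 weeks, and all lungs were taken on day 28. No group received nintedanib without bleomycin, so the action of the drug on these genes in lungs without bleomycin cannot be read. The labels give no age and no batch.

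Bleomycin binds iron and oxygen and cuts DNA strands, and it is instilled into rodent airways to produce lung fibrosis. Cells with broken DNA stabilise the transcription factor p53, which switches on Cdkn1a; its product p21 binds cyclin-dependent kinases and holds the cell cycle. Oxidants release the transcription factor NRF2 from its inhibitor KEAP1, and NRF2 drives Nqo1, a quinone reductase, and Hmox1, the enzyme that opens the heme ring and frees iron, biliverdin and carbon monoxide. Hmox1 is also abundant in macrophages that clear red cells. Gdf15 encodes a secreted member of the transforming growth factor beta superfamily, and both p53 and the integrated stress response can induce it.

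Promoter windows from RefSeq on the GRCr8 build (250 bases before to 50 bases after an annotated transcript start) are shown for 2 of the genes that changed, because p53 and NRF2 are the classic regulators of Cdkn1a and Nqo1. Of the 4 genes 3 had such a window; Hmox1 did not. Capitals mark matches, on either strand, to any of 7 motifs searched: the antioxidant response element core TGACNNNGC, the AP-1 motif TGANTCA, the cyclic AMP response element TGACGTCA, the CEBP-ATF response element TGATGNAAT, the E-box CACGTG, the hypoxia response core ACGTG, which the E-box contains, and the p53 decamer motif. The Cdkn1a window lies at chr20:7150682-7150981 on the plus strand and the Nqo1 window at chr19:52220218-52220517 on the minus strand.
Cdkn1a: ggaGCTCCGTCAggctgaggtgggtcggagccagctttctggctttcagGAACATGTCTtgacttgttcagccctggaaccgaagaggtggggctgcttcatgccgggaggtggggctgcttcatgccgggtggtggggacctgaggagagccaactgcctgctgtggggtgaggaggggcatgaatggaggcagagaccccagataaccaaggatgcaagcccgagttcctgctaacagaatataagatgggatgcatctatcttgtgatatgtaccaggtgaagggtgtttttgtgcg
Nqo1: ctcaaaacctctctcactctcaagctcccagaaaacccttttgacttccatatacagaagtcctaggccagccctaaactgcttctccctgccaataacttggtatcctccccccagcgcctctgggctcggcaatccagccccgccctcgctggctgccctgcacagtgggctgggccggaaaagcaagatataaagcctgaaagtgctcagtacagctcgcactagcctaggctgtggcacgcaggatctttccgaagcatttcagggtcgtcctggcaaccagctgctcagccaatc

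The Cdkn1a window held 2 matches. A match to the p53 decamer motif, GAACATGTCT, began 201 bases before the start. It read as a match on both strands because that motif is its own reverse complement. A single decamer was searched for, not a pair of them. An antioxidant response element core on the reverse strand, GCTCCGTCA, began 247 bases before the start. The p53 decamer motif was present in 7.98% and the antioxidant response element core in 12.1% of 33465 promoter windows of the same length. The Nqo1 window matched none of the 7 motifs, which says only that these letters are not in these 300 bases. Of the 2 Gdf15 windows, 1 had no match and the other had 2 matches to the antioxidant response element core, 85 and 2 bases before the start. The 3′-end reads do not tell which start site a transcript used, and the counts were made on the older rn6 build, so the windows and the expression values below are separate descriptions.

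Total counts ran from 16572004 to 21719946 per library, and levels are given as CPM, counts per 1000000 counts of the library total after scaling by edgeR's TMM factors (0.965 to 1.03). Earlier results of these data, not shown here, placed BLM replicate 3 far from the other animals. They also set SAL replicate 3 apart in several genes. Values without these animals are therefore given below. The search for outlying animals described in the closing sections flagged the TMM factor of SAL replicate 3 and nothing for BLM replicate 3. The names of other genes are not paired with identifiers here, so lung cell markers and the wider p53 and NRF2 target lists were not analysed here. In whole lung a change in the number of cells that express a gene cannot be told apart from a change in its RNA per cell.

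Cdkn1a, the p53 target that encodes the cell cycle inhibitor p21, was higher in both groups given bleomycin. In SAL animals it stood at 37.5, 41.8, 48.4 and 43.3 CPM (replicates 1 to 4). In BLM animals it stood at 98.0, 104, 124 and 120 CPM. In NINT animals it stood at 103, 116, 82.3 and 87.1 CPM. Every animal given bleomycin, with or without the drug, was above every SAL animal, and the BLM and NINT ranges overlapped.

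BLM animals averaged 111 ± 12.2 CPM of Cdkn1a against 42.7 ± 4.50 CPM for saline (SD, n = 4 each), a 2.61-fold rise (95% confidence interval 2.17 to 3.13). On the log2 scale this was 1.38 ± 0.12 (SE), with an adjusted p of 5.03e-05 in edgeR's quasi-likelihood test. Without BLM replicate 3 and SAL replicate 3 it was 1.44 (edgeR adjusted p = 0.000153). Of 14956 genes tested, 225 had a larger log2 fold change. Against SAL, NINT animals with 96.9 ± 15.2 CPM (SD, n = 4) were 2.27-fold higher (1.89 to 2.72), or 1.18 ± 0.12 on the log2 scale (SE; edgeR adjusted p = 0.000265). The difference between NINT and BLM was -0.20 on the log2 scale (SE 0.12, 95% confidence interval -0.46 to 0.06, edgeR adjusted p = 0.275), which did not pass the threshold. Of the 4 NINT animals 2 lay below all BLM animals and 2 lay within the BLM range.

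**Figure D1:**
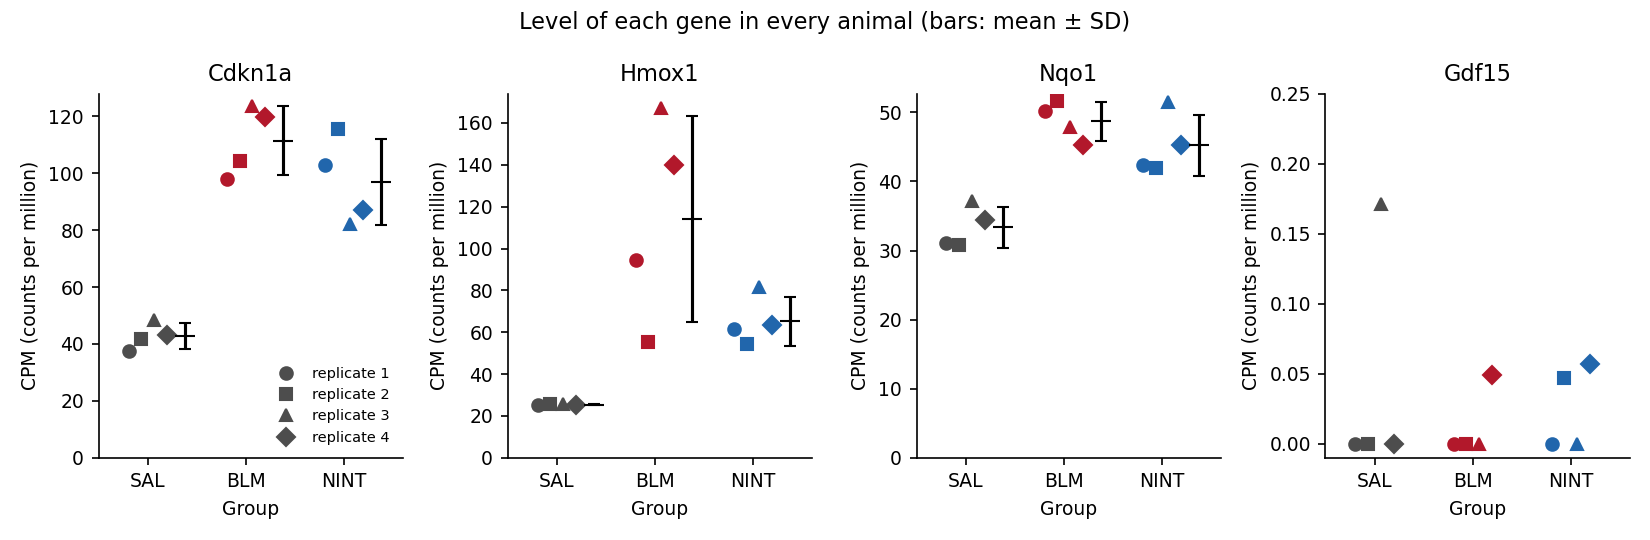
Level of each of the 4 genes in CPM (y axis, a separate scale in each panel) for every animal of the SAL, BLM and NINT groups (x axis); marker shapes give the replicate number and black bars the mean ± SD of 4 animals (none for Gdf15). For Cdkn1a, Hmox1 and Nqo1 all 8 animals given bleomycin lie above the SAL animals, Hmox1 spreads from 55.2 to 167 CPM within BLM, and Gdf15 is at or near 0 throughout.

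Hmox1, the heme-degrading enzyme, had the largest fold change of the 3 tested genes and the widest spread among BLM animals. Its level in SAL was 25.2, 25.6, 25.5 and 25.2 CPM (replicates 1 to 4). In BLM it was 94.3, 55.2, 167 and 140 CPM. In NINT it was 61.4, 54.4, 81.5 and 63.4 CPM. All animals given bleomycin were above all SAL animals, and BLM replicate 2 lay inside the range of the NINT animals while the other 3 BLM animals lay above that range.

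Hmox1 averaged 114 ± 49.4 CPM in BLM animals and 25.4 ± 0.203 CPM in SAL animals (SD, n = 4 each), a 4.49-fold rise (95% confidence interval 3.02 to 6.69). On the log2 scale the rise was 2.17 ± 0.27 (SE; edgeR adjusted p = 0.000299), and 61 of 14956 genes had a larger one. Leaving out BLM replicate 3, the highest animal, gave 1.97 (edgeR adjusted p = 0.000223). Leaving out BLM replicate 3 and SAL replicate 3 together gave 1.98 (edgeR adjusted p = 0.000931). In NINT it stood at 65.2 ± 11.5 CPM (SD, n = 4), 2.57-fold above SAL (1.74 to 3.79), or 1.36 ± 0.26 on the log2 scale (SE; edgeR adjusted p = 0.00774).

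The difference in Hmox1 between NINT and BLM was -0.81 on the log2 scale (SE 0.25, 95% confidence interval -1.36 to -0.26). The unadjusted p of edgeR's test was 0.00726 and the adjusted p over all genes was 0.0712, so that the gene did not pass the threshold. The call depended on BLM replicate 2. Without that animal the difference was -1.03 (edgeR adjusted p = 0.00787), and without BLM replicate 3 it was -0.56 (edgeR adjusted p = 0.178). Over all genes, edgeR called 872 with all animals, 2857 without BLM replicate 2 and 272 without BLM replicate 3. The SE and interval above use a spread shared with the SAL animals, among which Hmox1 varied least. In an edgeR fit of the NINT and BLM animals alone the difference was -0.80 (SE 0.30, edgeR adjusted p = 0.166). That fit called 28 genes. DESeq2 called Hmox1 with all 12 animals (-0.79, DESeq2 adjusted p = 0.0274) and limma voom did not (-0.71, limma adjusted p = 0.0989). Over all genes DESeq2 called 1965 and limma voom 852. In an exact permutation test of the 4 NINT against the 4 BLM animals, two-sided, p was 0.114 (adjusted 0.147 over 9 comparisons).

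**Figure D2:**
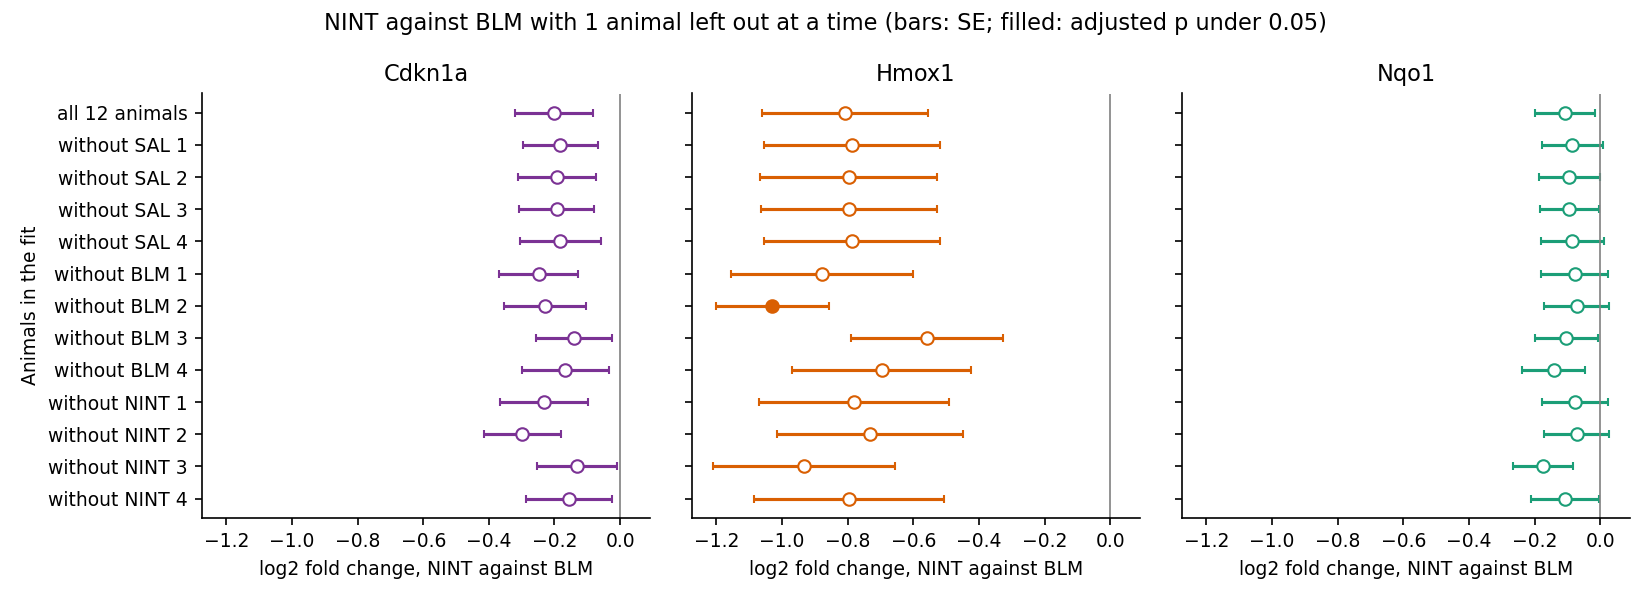
Log2 fold change of NINT against BLM (x axis, the same scale in each panel) for Cdkn1a, Hmox1 and Nqo1 in the edgeR fit of all 12 animals and in fits that leave out 1 animal (y axis); bars are SE and filled points passed an adjusted p of 0.05. All points lie below 0, and the only filled point is Hmox1 without BLM replicate 2, at -1.03.

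Nqo1, the quinone reductase driven by NRF2, had a smaller fold change than Cdkn1a and Hmox1. Its level in SAL was 31.1, 30.7, 37.1 and 34.4 CPM (replicates 1 to 4). In BLM it was 50.2, 51.7, 47.9 and 45.2 CPM. In NINT it was 42.4, 41.9, 51.5 and 45.3 CPM. As for Cdkn1a and Hmox1, no SAL animal reached the lowest animal given bleomycin, while BLM and NINT overlapped.

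Nqo1 averaged 48.7 ± 2.82 CPM in BLM animals and 33.3 ± 3.02 CPM in SAL animals (SD, n = 4 each), a 1.46-fold rise (95% confidence interval 1.27 to 1.68). On the log2 scale this was 0.55 ± 0.09 (SE; edgeR adjusted p = 0.00151), and without BLM replicate 3 and SAL replicate 3 it was 0.66 (edgeR adjusted p = 0.00191). In this comparison 1497 genes, or 10.01% of those tested, had a larger log2 fold change. NINT animals at 45.3 ± 4.41 CPM (SD, n = 4) were 1.36-fold above SAL (1.18 to 1.56), or 0.44 ± 0.09 on the log2 scale (SE; edgeR adjusted p = 0.0116). The difference between NINT and BLM was -0.11 (SE 0.09, 95% confidence interval -0.30 to 0.09, edgeR adjusted p = 0.445).

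Gdf15, the secreted stress factor, was at the limit of detection in every group. It had 6 reads among 230329322 in the 12 libraries: 3 in SAL replicate 3, and 1 each in BLM replicate 4, NINT replicate 2 and NINT replicate 4. The other 8 libraries had none, which allows up to 0.139 to 0.175 CPM in a single library (3 counts). Over the group totals the exact 95% Poisson intervals reached 0.121 CPM in SAL, 0.0696 CPM in BLM and 0.0931 CPM in NINT; these cover counting error only. No group total exceeded 3 reads, so no fold change is given, and a difference between groups was not detectable at this depth. Reads are assigned to annotated gene models, and whether any Gdf15 reads fell outside its model was not tested.

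The order of the group levels was therefore BLM, NINT and SAL for each of Cdkn1a, Hmox1 and Nqo1, in which SAL was separated from both groups given bleomycin and the BLM and NINT animals overlapped. All 3 tested genes were called higher in BLM than in SAL, where 18.3% of all genes tested were called higher and 40.8% in either direction. All 3 were also called higher in NINT than in SAL, where 4.25% of genes were. That share rests on 635 genes higher, beside 756 lower. The number higher was 1614 without BLM replicate 3, 1074 without BLM replicate 2, 411 without NINT replicate 1 and 375 without NINT replicate 3. It was 1127 in DESeq2 and 1990 in a fit of the NINT and SAL animals alone, and scaling by library size alone gave 507 higher and 1088 lower. None of the 3 passed the threshold between NINT and BLM in edgeR, where 5.83% of genes were called. In edgeR 1 of them, Hmox1, had an unadjusted p under 0.05, as had 4266 of the genes tested. DESeq2 called 1 of them among 1965 genes, and limma voom 0 among 852. The edgeR count behind the 5.83%, 872 genes, fell to 17 when NINT replicate 2 was left out and rose to 2857 when BLM replicate 2 was. The comparisons share animals, so that the BLM and NINT rises over SAL are not independent of each other.

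Animals of BLM and SAL did not overlap, BLM being higher, for each of these 3 genes and for 16.2% of all genes tested. For NINT and SAL the share of all genes was 10.6%. Each of these 6 comparisons reached the smallest two-sided p that an exact permutation test of 4 against 4 can give, 0.0286 (adjusted 0.0429 over 9 comparisons). Groups that do not overlap always give that p, so the test adds nothing to the separation. The adjusted value depends on how many of the 9 comparisons reach the smallest p.

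**Figure D3:**
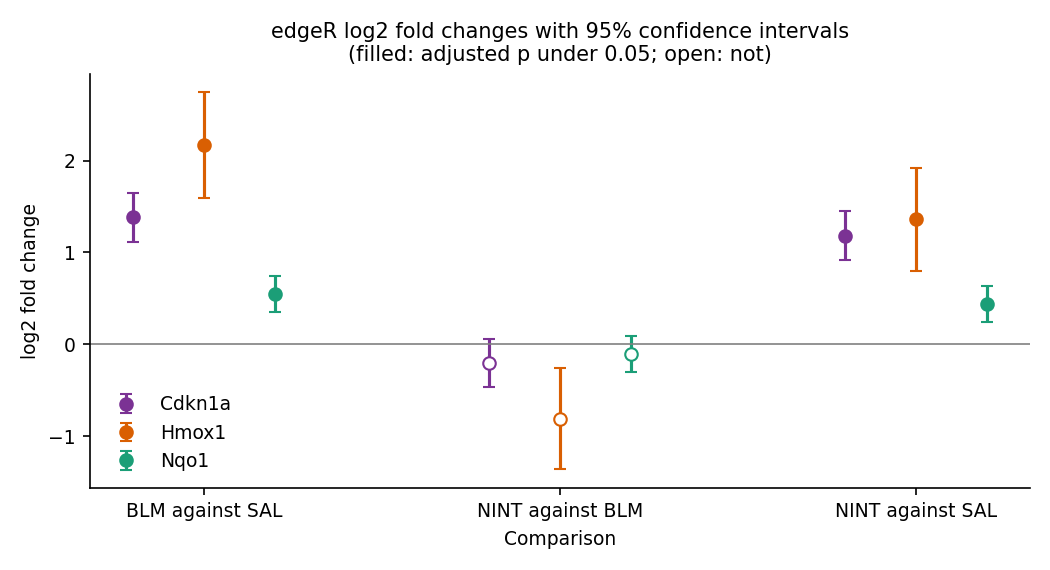
Log2 fold change (y axis) of Cdkn1a, Hmox1 and Nqo1 in each of the 3 comparisons (x axis) from the edgeR fit of all 12 animals; bars are 95% confidence intervals and open points did not pass an adjusted p of 0.05. Both comparisons with SAL lie above 0 for all 3 genes, from 0.44 to 2.17, and the 3 points of NINT against BLM, from -0.81 to -0.11, are open.

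Among all genes tested, Hmox1 and Cdkn1a lay in the upper tail of both comparisons with SAL and Nqo1 lay nearer the bulk. The median log2 fold change over all genes was 0.0019 in BLM against SAL, with 95% of genes below 0.82, a value exceeded by Hmox1 and Cdkn1a but not by Nqo1. In NINT against SAL the median was -0.03 and 95% of genes were below 0.57, again exceeded by Hmox1 and Cdkn1a, with 103 and 156 genes above them. In NINT against BLM the median was -0.0057 and 5% of genes were below -0.63. Hmox1 at -0.81 lay beyond that value, with 427 genes lower, whereas Cdkn1a and Nqo1 had 3998 and 5684 genes lower.

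**Figure D4:**
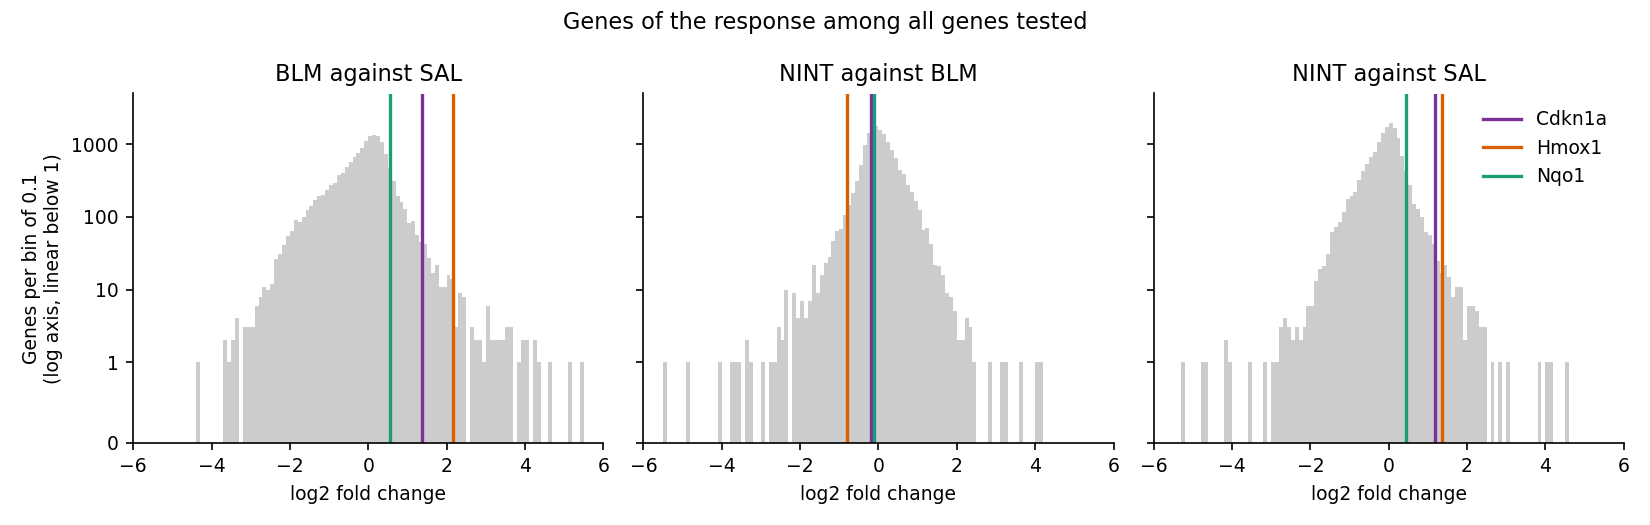
Number of genes per bin of 0.1 (y axis, logarithmic and linear below 1) against log2 fold change (x axis) for all 14956 genes tested in each comparison, with Cdkn1a, Hmox1 and Nqo1 drawn as vertical lines. Hmox1 stands farthest right in both comparisons with SAL (2.17 and 1.36) and left of the centre in NINT against BLM (-0.81).

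The spread among animals was uneven across the 3 genes. Among SAL animals Hmox1 had a coefficient of variation of 0.800%, below the 4.66% that counting error alone gives at this depth on average, and 99.8% of the 6191 genes with a mean of at least 20 CPM varied more. In BLM its coefficient of variation was 43.3%, with a 3.03-fold range from lowest to highest, and 4.51% of those genes varied more. In NINT the value was 17.7% with a 1.499-fold range.

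Nqo1 varied by 9.07% in SAL, 5.79% in BLM and 9.73% in NINT, and Cdkn1a by 10.5%, 10.96% and 15.7%. The median gene at this level varied by 7.20%, 12.96% and 7.56% in the same groups, so in BLM Nqo1 and Cdkn1a varied less than the median gene and Hmox1 more. Differences in spread between groups were not tested.

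The 3 genes did not rank the animals alike. In BLM, replicates 3 and 4 were highest for both Hmox1 and Cdkn1a but lowest for Nqo1, for which replicate 2 was highest. In NINT, the order for Hmox1 was replicate 3, 4, 1 and 2, the same as for Nqo1 and the reverse of that for Cdkn1a. With 4 animals a group these orders are given as a description.

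Whether the genes changed unequally was read from the ratio of 2 genes within each library, which does not depend on how libraries are scaled. Only the change of a ratio between groups is read, since the capture of 3′ ends differs between genes. The log2 ratio of Hmox1 over Nqo1 averaged -0.39 ± 0.13 for SAL animals, 1.11 ± 0.78 for BLM animals and 0.51 ± 0.12 for NINT animals (SD, n = 4 each). All BLM and all NINT animals were above all SAL animals.

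The ratio of Cdkn1a over Nqo1 showed the same separation, at 0.36 ± 0.07 for SAL animals, 1.19 ± 0.23 for BLM animals and 1.09 ± 0.35 for NINT animals (SD, n = 4 each). These 4 separations had a p of 0.0286 in exact permutation tests, two-sided, the smallest possible, and an adjusted p of 0.0643 over 9 comparisons of ratios, which did not pass 0.05. The share of all pairs of genes that separate in this way was not measured. The separations are therefore not read as particular to these pairs. From SAL to BLM the mean log2 ratio rose by 1.495 for Hmox1 over Nqo1 and by 0.83 for Cdkn1a over Nqo1; these are differences of mean log2 CPM ratios, not of the fitted log2 fold changes above. Without BLM replicate 2 they were 1.83 and 0.89. Their adjusted exact permutation p was then 0.0429, which reflects that more of the 9 comparisons reached the smallest p, since both were at it with all animals.

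For Hmox1 over Cdkn1a the log2 ratio averaged -0.74 ± 0.15 for SAL animals, -0.08 ± 0.59 for BLM animals and -0.57 ± 0.45 for NINT animals (SD, n = 4 each). In BLM it was -0.06, -0.92, 0.43 and 0.22 in replicates 1 to 4, so replicate 2 sat with the lowest SAL animal and the other 3 were above all SAL animals. The difference between BLM and SAL was 0.66 (exact permutation test, two-sided, p = 0.114, adjusted 0.206). Without BLM replicate 2 it was 0.94 (adjusted exact permutation p = 0.0429). That animal was the only BLM animal not above all SAL animals. Leaving it out therefore gives full separation and the smallest p, and no conclusion is drawn from that p.

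Between NINT and BLM no ratio passed the exact permutation test. The differences were -0.59 for Hmox1 over Nqo1, -0.50 for Hmox1 over Cdkn1a and -0.10 for Cdkn1a over Nqo1 (adjusted p = 0.331, 0.331 and 0.629). Without BLM replicate 2 the difference for Hmox1 over Nqo1 was -0.93 (adjusted exact permutation p = 0.0429), and all 3 remaining BLM animals lay above the 4 NINT animals. BLM replicate 2, at 0.09, was the only BLM animal not above them. Leaving it out therefore gives full separation and the smallest p, and no conclusion is drawn from that p.

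**Figure D5:**
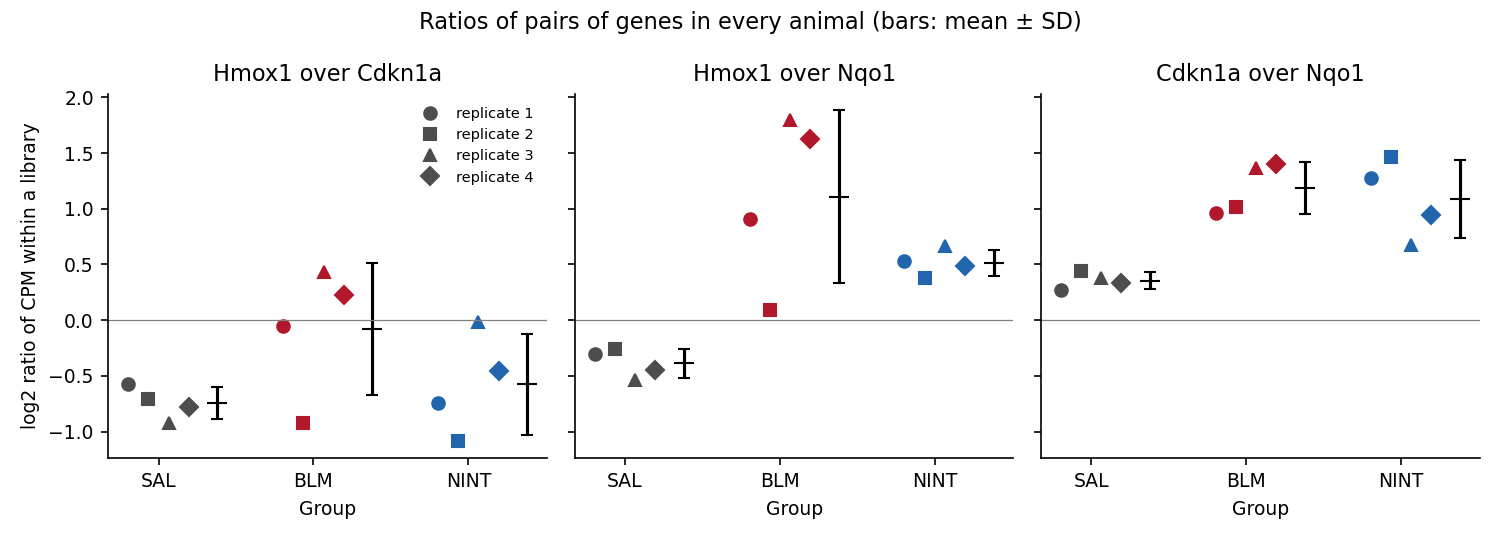
Log2 ratio of CPM within a library (y axis) for the 3 pairs of genes in every animal of the SAL, BLM and NINT groups (x axis); marker shapes give the replicate number and black bars the mean ± SD of 4 animals. For Hmox1 over Nqo1 and Cdkn1a over Nqo1 all animals given bleomycin lie above the SAL animals, and BLM replicate 2 is the lowest BLM animal for both ratios that hold Hmox1.

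Likeness to other genes was measured by Pearson's r of log2 CPM over the 12 libraries, which mostly reflects the differences between groups and is given as a description. Hmox1 had 323 genes at r of at least 0.9 among 14955, Nqo1 had 117 and Cdkn1a had 85. No such count was made for a typical gene, so these counts are not read as particular to these genes. The gene most like Hmox1 was ENSRNOG00000000994 (r = 0.981), and the one most like Cdkn1a was ENSRNOG00000021438 (r = 0.956); both are given by identifier because no name is paired with them here. The closest to Nqo1 reached r = 0.972. Cdkn1a and Hmox1 had r = 0.884 with each other, with 151 genes more like Cdkn1a than Hmox1 was.

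After the mean of each group was subtracted, r was 0.17 between Cdkn1a and Hmox1, -0.11 between Hmox1 and Nqo1 and -0.31 between Cdkn1a and Nqo1. These values pool the SAL, BLM and NINT groups, in which the 3 genes ranked the animals differently. In NINT, Hmox1 had the order of Nqo1 and the reverse of that of Cdkn1a. In BLM, replicates 3 and 4 were highest for Hmox1 and Cdkn1a and lowest for Nqo1. A weak pooled r therefore does not show that the genes were unlike within each group. The group means moved together. With group means subtracted, Hmox1 had 24 genes at r of at least 0.9, Nqo1 had 2 and Cdkn1a had 1. No such count was made for a typical gene here either.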

How the data were processed

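The authors deposited raw counts, whole numbers of reads per Ensembl gene identifier, with 1 column per animal; 7 further columns without a name were empty. Per the submitters' processing notes the rn6 build, FastQC, STAR and HTSeq were used; versions, annotation and strand setting are not given in the sources used here, so overlapping genes could share reads. Per the labels' protocols libraries were made with QuantSeq FWD. No reference identifier matched (0 of 32623), so the symbols of the 4 genes are those of the definition of this gene group, and the pathway lists, 7 in all, and the cell type markers were not used. The members, lists and tests were chosen with earlier results of these data known. The rule for named genes took the 4 genes always, and the genes most like each, printed as at most 2 identifiers that rose.

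Counts were tested in R 4.3.3 with edgeR 4.0.16: filterByExpr (minimum count 10, minimum total 15) kept 14956 of 23413 genes with a read, Gdf15 not among them; TMM factors; the quasi-likelihood test in 1 fit of the 3 groups, with Benjamini-Hochberg adjustment over all genes, called under 0.05. SE and intervals come from that fit. CPM used the full library totals, and log2 CPM a prior count of 2. Exact permutation tests, two-sided, covered 9 comparisons of single genes and 9 of ratios, since Gdf15 could not enter the 12 and 18 planned. Alternatives used other normalizations and filters, DESeq2 1.42.0, limma 3.58.1 (voom), fits of the compared groups alone, the replicate number as a block, and leaving out each animal. The edgeR step was tested on simulated data. Libraries of 1 group differed by more than counting error (the lowest chi-square over its degrees of freedom was 9.72), and each is 1 animal per the labels.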

Additional observations from a re-analysis of the deposited data

Results flagged for a closer look

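Within each group of 4, each gene's CPM, each ratio, the total counts and the TMM factors were searched for 1 animal far from the others of its group. Of 24 such sets 1 had one, where chance alone gives about 1.2. The TMM factor of SAL replicate 3 was 0.993, against 1.03 in the other 3 SAL libraries. This animal also had the highest Cdkn1a (48.4 CPM) and Nqo1 (37.1 CPM) of its group. Its part in the results was measured by leaving it out: the log2 fold change of BLM against SAL was then 1.48 for Cdkn1a and 0.63 for Nqo1, both still called by edgeR.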

How the results depend on the processing

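Of 189 alternative values for the 9 results on single genes (Cdkn1a, Hmox1 and Nqo1 in 3 comparisons, 21 alternatives each), 187 kept direction and side of the threshold and none reversed. Both exceptions were Hmox1 in NINT against BLM, called by DESeq2 (-0.79) and without BLM replicate 2 (-1.03); fits without 1 animal ranged from -1.03 to -0.56 (without BLM replicate 3). With a replicate block all 9 calls stayed (Hmox1 in NINT against BLM -0.74), but genes called in NINT against BLM went from 872 to 370. No sign of pairing by number was seen: 1 of 12 same-numbered pairs had correlated deviations over 0.1 (range -0.17 to 0.20). Pairs of other numbers ranged from -0.16 to 0.18, and 2 of 12 libraries were closest to their own number. Such correlations cannot show that animals were not paired. No value is given for Gdf15 under any setting, because only genes that passed the main filter were read from the alternative fits.

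The background count moved more. In NINT against BLM it was 1965 in DESeq2, 28 in a fit of these groups alone, 205 without BLM replicate 3 and SAL replicate 3 together (chosen after seeing the data), and 17 (without NINT replicate 2) to 2857 (without BLM replicate 2) with 1 animal left out, over 1.5 times from 872 in all 12 such fits. In NINT against SAL 1391 genes became 2234 in DESeq2, 4248 in a fit of these groups alone and 2134 without the same 2 animals. Leaving out 1 animal gave 675 (NINT replicate 3) to 3344 (BLM replicate 3), and also moved it by over 1.5 times for SAL replicates 3 (702) and 4 (705) and NINT replicates 1 (768) and 4 (767). For ratios the adjusted exact permutation p depends on how many of the 9 comparisons reach the smallest p, and on the number of animals per group. Without any 1 SAL animal, both ratios over Nqo1 stayed fully separated from SAL, yet their adjusted exact permutation p was 0.129. The adjusted exact permutation p of a ratio passed 0.05 only without BLM replicate 2, for 4 of the 6 comparisons that hold BLM animals. Of these, Hmox1 over Nqo1 and Cdkn1a over Nqo1 in BLM against SAL had the smallest p with all animals. Hmox1 over Cdkn1a in BLM against SAL and Hmox1 over Nqo1 in NINT against BLM did not. Their exact permutation p with all animals was 0.114 and 0.257, so their passing depended on BLM replicate 2. Hmox1 over Cdkn1a in NINT against SAL and Cdkn1a over Nqo1 in NINT against BLM, neither called, reversed without NINT replicate 3 (-0.0186 and 0.0389). The cause of these shifts was not tested. Over fits without 1 animal, Hmox1 over Cdkn1a ranged from 0.49 to 0.94 in BLM against SAL and up to 0.34 in NINT against SAL, Cdkn1a over Nqo1 from 0.76 to 0.91 in BLM against SAL and from -0.22 in NINT against BLM, and Hmox1 over Nqo1 from 1.26 to 1.83 in BLM against SAL and from -0.93 to -0.36 in NINT against BLM.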
